A study of Mus musculus with 6 samples.

Results

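The constant regions of mouse antibodies are encoded by 8 heavy chain genes and the kappa gene *Igkc*, and the joining chain by *Jchain*. These 10 genes were taken by symbol from the 55254 genes of a table of RNA levels in whole liver. The 6 libraries came from 3 WT mice after 7 weeks on CDA-HFD and 3 WT mice on a normal diet (ND). CDA-HFD is rich in fat, lacks choline and supplies its amino acids in defined form, and it brings on steatohepatitis and then fibrosis in mice. Per the study's methods the mice on it were males put on the diet as young adults, and the strain used was C57BL/6J. The labels give WT as the genotype of both groups and name no transgene or drug, and they call the libraries biological replicates without saying how long the ND mice were fed. The diet is low in methionine as well as choline, so that it is not a model of overfeeding alone.

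B cells carry an antibody on the membrane as their receptor, and plasma cells, into which they mature, secrete it. A resting B cell makes IgM and IgD from the *Ighm* and *Ighd* exons. Class switching, a DNA rearrangement, then puts IgG, IgA or IgE exons behind the same variable region, whereas the light chain (kappa or lambda) stays as it is. The J chain joins IgM into pentamers and IgA into dimers, the forms that epithelia carry across into bile and onto mucosa. Normal liver holds few B cells and fewer plasma cells, and in mice it carries polymeric IgA from blood into bile.

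Each heavy chain gene can end its mRNA in 2 ways, as a secreted form or as a form with membrane exons. The last 63 coding bases of the secreted form are shown for *Ighm*, *Igha* and *Ighg2c*, because only in the IgM and IgA tails is the next-to-last codon the cysteine that bonds to the J chain (capitals). They are the GENCODE vM21 transcripts in GRCm38, read 5′ to 3′ on the minus strand of chr12, at chr12:113420870-113420932 for *Ighm*, chr12:113258771-113258833 for *Igha* and chr12:113287392-113287454 for *Ighg2c*.
Ighm: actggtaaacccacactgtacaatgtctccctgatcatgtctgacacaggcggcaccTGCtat
Igha: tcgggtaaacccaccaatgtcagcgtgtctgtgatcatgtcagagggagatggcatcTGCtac
Ighg2c: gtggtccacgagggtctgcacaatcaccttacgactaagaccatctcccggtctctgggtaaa

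The IgG genes differ from each other most in the hinge, the short exon 2 that links the arms of the antibody to its stem. The 4 hinge exons are shown with their cysteine codons in capitals, since the members with the largest ratios between the diets are IgG genes, which reads must tell apart. *Ighg1* and *Ighg2b* held 4 cysteine codons each, *Ighg2c* 3 and *Ighg3* 1. They lie on the minus strand at chr12:113329844-113329882 for *Ighg1*, chr12:113307261-113307326 for *Ighg2b*, chr12:113288263-113288325 for *Ighg2c* and chr12:113360529-113360576 for *Ighg3*.
Ighg1: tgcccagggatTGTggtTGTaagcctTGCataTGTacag
Ighg2b: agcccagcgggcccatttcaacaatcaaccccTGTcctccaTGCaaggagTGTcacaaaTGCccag
Ighg2c: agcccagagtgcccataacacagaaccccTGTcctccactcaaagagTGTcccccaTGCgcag
Ighg3: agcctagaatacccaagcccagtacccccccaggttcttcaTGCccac

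The values are TPM, transcript levels corrected for exon length and scaled to a sum of 1000000 per library. Nearly all values (98.4% to 98.5%) were a whole number of reads times a step fixed by exon length, which gave the reads behind them. The libraries held 16830198 to 18919516 reads on CDA-HFD and 14125649 to 15301208 reads on ND. Hepatocyte transcripts dominated both (*Alb*, encoding albumin, 11960 to 13350 TPM on CDA-HFD and 15390 to 15620 TPM on ND), as the label of liver has it, although the labels' extraction text speaks of sorted cells. All replicate pairs differed by more than sampling of reads gives.

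All the members but *Ighe* were higher on average in CDA-HFD livers than in ND livers, with the largest ratios in *Ighg2c*, *Ighg1* and *Ighg2b*. Of the 10 members, 7 reached the mean of 1 TPM that the test required. With limma on log2(TPM + 1), 5 of these 7 rose in CDA-HFD livers, *Igkc*, *Ighg2c*, *Jchain*, *Igha* and *Ighg2b* (adjusted p below 0.05 and a log2 fold change of at least 1), and 0 fell. Over all 14730 genes tested, 21.1% were called higher and 3.79% lower. In 6 of the 7 every CDA-HFD library lay above every ND library, which held for 54.9% of all genes tested. The median log2 fold change was 1.64 over the 7 members and 0.32 over all genes tested. *Ighg2b* and *Ighg2c* reached the 1 TPM mean only through the CDA-HFD libraries, and the members tested are therefore not a neutral sample of the 10. In whole liver, more B lineage cells and more RNA per cell cannot be told apart.

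**Figure D1:**
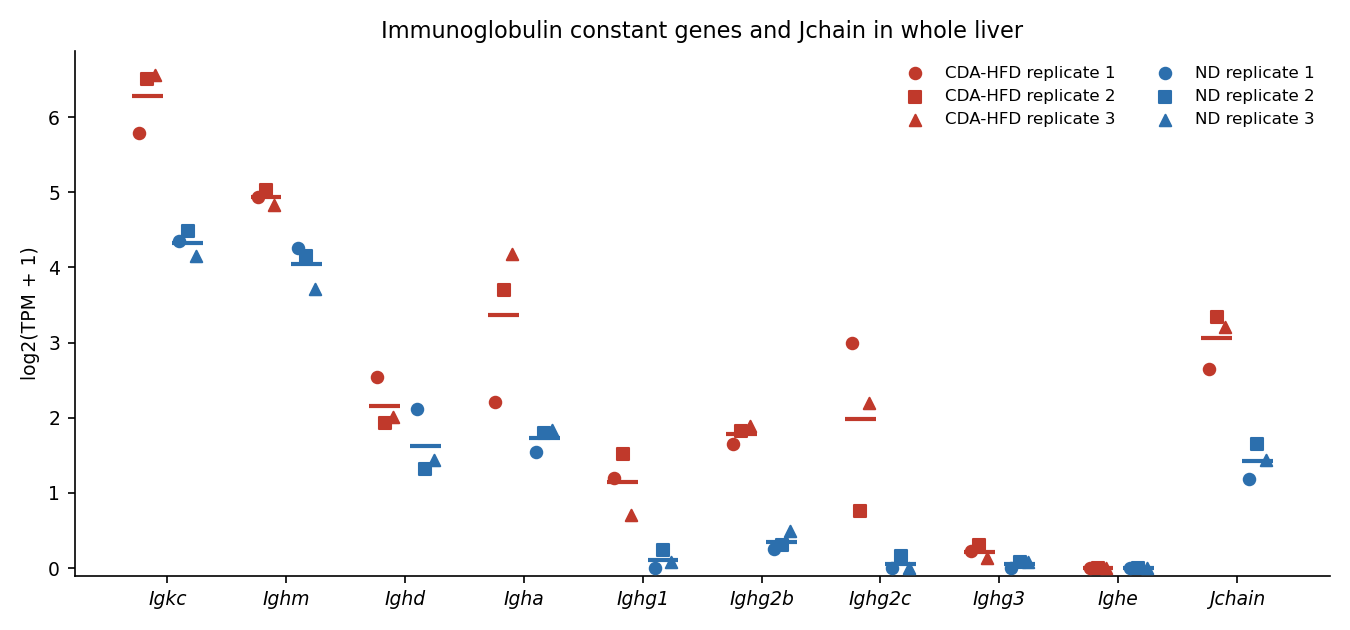
Level of each member, as log2(TPM + 1) on the vertical axis, in the 3 CDA-HFD libraries (red) and the 3 ND libraries (blue); horizontal bars are group means and marker shapes are replicate numbers. The groups of Ighd overlap, Ighe is at 0 throughout, and in the other 8 members every CDA-HFD library lies above every ND library.

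*Igkc*, the constant region of kappa light chains (chr6:70726435-70726966, plus strand, 1 exon), was the member of highest level in both diets. It stood at 54.37, 89.86 and 93.04 TPM in CDA-HFD livers, from 216, 339 and 408 reads, against 19.5, 21.4 and 16.7 TPM in ND livers, from 64, 76 and 60 reads. The lowest CDA-HFD library was far above the highest ND library, and CDA-HFD replicate 1 was the lowest of its group. The log2 fold change was 1.95 ± 0.20 (SE, limma adjusted p = 6.32e-05), a ratio of means of 4.12. *Igkc* was called higher under all 20 alternatives.

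*Ighm*, the heavy chain of IgM (chr12:113418558-113422730, minus strand, 6 exons in the form with membrane exons), was the most abundant heavy chain. It stood at 29.7, 31.8 and 27.6 TPM in CDA-HFD livers, from 376, 383 and 386 reads, against 18.1, 16.9 and 12.1 TPM in ND livers, from 190, 191 and 139 reads. The groups did not overlap and the CDA-HFD libraries lay close together. Its log2 fold change of 0.89 ± 0.14 (SE, limma adjusted p = 0.000819) stayed under the limit of 1, so that it was not called, and without ND replicate 1 it was 1.00 and called.

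*Ighd*, the IgD heavy chain of naive B cells (chr12:113406604-113416324), stood at 4.82, 2.81 and 3.02 TPM in CDA-HFD livers, from 65, 36 and 45 reads, against 3.32, 1.49 and 1.72 TPM in ND livers, from 37, 18 and 21 reads. The groups overlapped, and replicate 1 was the highest of its group on either diet. The log2 fold change was 0.54 ± 0.25 (SE, limma adjusted p = 0.0904), and with quantile normalization it changed sign to −0.17.

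*Igha*, the heavy chain of IgA, the antibody of mucosa and bile (chr12:113254830-113260236), varied more among the CDA-HFD livers, relative to its mean, than any other member above 5 TPM. It stood at 3.64, 12.0 and 17.1 TPM in CDA-HFD livers, from 69, 216 and 358 reads, against 1.91, 2.48 and 2.57 TPM in ND livers, from 30, 42 and 44 reads. The groups did not overlap, but CDA-HFD replicate 1 stood nearer to the ND livers than to the other CDA-HFD livers. The log2 fold change was 1.64 ± 0.44 (SE, limma adjusted p = 0.0115). It was 2.21 without CDA-HFD replicate 1 and 1.23 without CDA-HFD replicate 3, and called in both cases. With quantile normalization it was 0.97 and the call was lost (limma adjusted p = 0.115).

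The IgG genes, which encode the main antibodies of serum, were almost absent from ND livers. *Ighg2b* (chr12:113302965-113307933) stood at 2.14, 2.53 and 2.70 TPM in CDA-HFD livers, from 41, 46 and 57 reads, against 0.189, 0.234 and 0.404 TPM in ND livers, from 3, 4 and 7 reads. It was the IgG gene that varied least among the CDA-HFD livers and rose by 1.44 ± 0.15 on the log2(TPM + 1) scale (SE, limma adjusted p = 6.17e-05), which understates a change that starts near 0. The ratio of pooled levels was 8.84 (95% exact interval 5.10 to 16.6, counting error only). With quantile normalization the log2 fold change was 0.93 and the call was lost.

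*Ighg2c*, the IgG2a-like gene of C57BL/6 mice (chr12:113285325-113288932), stood at 6.949, 0.697 and 3.598 TPM in CDA-HFD livers, from 63, 6 and 36 reads, against 0, 0.124 and 0 TPM in ND livers, from 0, 1 and 0 reads. Every CDA-HFD library was above the ND libraries, and CDA-HFD replicate 1 held most of the reads. The log2 fold change was 1.93 ± 0.49 (SE, limma adjusted p = 0.00864). The pooled ratio of 90.2 rests on 1 read in ND, with an interval of 15.8 to 3597. Without CDA-HFD replicate 1 the gene fell under the 1 TPM mean and was not tested, which left 4 members called.

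*Ighg1* (chr12:113325240-113330523), the class that follows interleukin-4 in mice, had a mean under 1 TPM and was not tested. It stood at 1.30, 1.88 and 0.635 TPM in CDA-HFD livers, from 24, 33 and 13 reads, against 0, 0.181 and 0.0597 TPM in ND livers, from 0, 3 and 1 reads. The groups did not overlap and the pooled ratio was 15.0 (95% exact interval 5.62 to 56.7). In the fit without a filter its log2 fold change was 1.04 (limma adjusted p = 0.00787).

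*Ighg3* (chr12:113356224-113361232), a mouse IgG class typical of responses to carbohydrates, was at the limit of detection, with 3, 4 and 2 reads in CDA-HFD livers and 0, 1 and 1 reads in ND livers. Its pooled ratio was 3.87 with an interval of 0.800 to 36.8 that includes no difference. *Ighe* (chr12:113269260-113273248), the heavy chain of IgE, had 0 reads in all 6 libraries. That allows up to 0.249 to 0.290 TPM per CDA-HFD library and up to 0.304 to 0.333 TPM per ND library (3 reads each), so that a level like those of *Ighg3* could not have been told from 0.

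The 4 IgG genes together came to 10.6, 5.33 and 7.03 TPM in CDA-HFD livers, against 0.189, 0.601 and 0.525 TPM in ND livers, a ratio of means of 17.4. Which IgG gene was highest differed among the CDA-HFD livers: *Ighg2c* in replicates 1 and 3, and *Ighg2b* in replicate 2. Fitted as 1 gene, their sum had a log2 fold change of 2.55 ± 0.23 (SE, limma adjusted p = 3.23e-05). With means of 7.64 TPM on CDA-HFD and 0.438 TPM on ND, the sum too reached the 1 TPM mean only through the CDA-HFD libraries. It also takes in *Ighg1* and *Ighg3*, which were not tested alone. The genes share little sequence at the read length. Of all stretches of 75 bases, 0.8% in *Ighg2b*, 0.5% in *Ighg2c* and 0.6% in *Ighg3* recur in another IgG gene, and 0% in *Ighg1*.

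*Jchain*, the gene of the joining chain (chr5:88519809-88527891), stood at 5.29, 9.11 and 8.27 TPM in CDA-HFD livers, from 55, 90 and 95 reads, against 1.28, 2.15 and 1.70 TPM in ND livers, from 11, 20 and 16 reads. The groups did not overlap, and replicate 1 was the lowest of its group on either diet. The log2 fold change was 1.64 ± 0.21 (SE, limma adjusted p = 0.000203). With quantile normalization it was 0.96 and the call was lost, though the adjusted p was 0.00797.

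In CDA-HFD livers the mean levels ran, in TPM, from *Igkc* (79.1 ± 21.5, SD, n = 3) through *Ighm* (29.7 ± 2.12), *Igha* (10.9 ± 6.80), *Jchain* (7.56 ± 2.01), *Ighg2c* (3.75 ± 3.13), *Ighd* (3.55 ± 1.10), *Ighg2b* (2.45 ± 0.285) and *Ighg1* (1.27 ± 0.620) to *Ighg3* (0.167 ± 0.0666). From *Igha* down to *Ighd* each gene overlapped with the next, whereas *Igkc*, *Ighm*, *Ighg2b*, *Ighg1* and *Ighg3* overlapped with no neighbour in this order. *Ighg2c*, at 0.697 to 6.949 TPM, spanned the range of *Ighg2b* and overlapped with *Ighg1*, so that these IgG genes are not ranked apart. In ND livers *Igkc* (19.2 ± 2.37 TPM) and *Ighm* (15.7 ± 3.16 TPM) overlapped. Below them *Igha* (2.32 ± 0.354 TPM), *Ighd* (2.18 ± 0.994 TPM) and *Jchain* (1.71 ± 0.437 TPM) also overlapped, and each IgG gene averaged under 0.3 TPM.

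Levels of different isotypes depend on the exon length behind the TPM. The length of the form with membrane exons gave whole reads in 38 of 38 heavy chain values above 0, and that of the secreted form in 2 of 38. The stretch found only in the secreted mRNA, 188 bases in *Ighm* and 128 in *Igha*, was thus left out of the length used, and it holds 59 of the 63 tail bases shown above for each of these genes. The membrane exons make up much of the *Igha* length (2540 bases, against 1100 in the secreted form) and little of the *Ighg2c* length (1214 against 1111 bases). Secreted and membrane mRNA could not be counted apart. As a divisor, the length cancels in a gene's ratio of TPM between the diets. Through the pseudocount and the 1 TPM filter it bears on the log2 fold change and on which genes were tested. A difference between the diets in the share of secreted mRNA could still enter the ratio of a heavy chain gene, which was not tested.

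The mixture of heavy chain classes was compared as shares of the summed heavy chain TPM, which was 48.7, 52.0 and 54.7 TPM in CDA-HFD livers and 23.6, 21.4 and 16.9 TPM in ND livers. IgM made up 60.9%, 61.2% and 50.4% in CDA-HFD livers and 77.0%, 78.7% and 71.6% in ND livers, a difference of −18.2 percentage points. IgG made up 21.7%, 10.3% and 12.8% in CDA-HFD livers and 0.804%, 2.80% and 3.10% in ND livers, a difference of 12.7 points. Neither share overlapped between the diets, and each gave an exact permutation p = 0.1 (two-sided, n = 3 each, adjusted p = 0.2 over 4 classes). That is the smallest p that 3 against 3 can give, so this design cannot pass 0.05.

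IgA made up 7.48%, 23.1% and 31.2% in CDA-HFD livers and 8.13%, 11.6% and 15.2% in ND livers. Its groups overlapped (exact permutation p = 0.4, n = 3 each), because CDA-HFD replicate 1 had the lowest IgA share of all 6 livers while it had the highest IgG share. The difference of 8.99 points was 15.6 points without that library and 3.67 points without CDA-HFD replicate 3. The IgD share differed by −3.46 points, with overlapping groups (exact permutation p = 0.2, n = 3 each). The adjusted p was 0.4 for IgA and 0.267 for IgD. Computed from reads per length of the secreted form, the differences were −18.3 points for IgM, 13.3 for IgG, 11.2 for IgA and −6.20 for IgD.

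**Figure D2:**
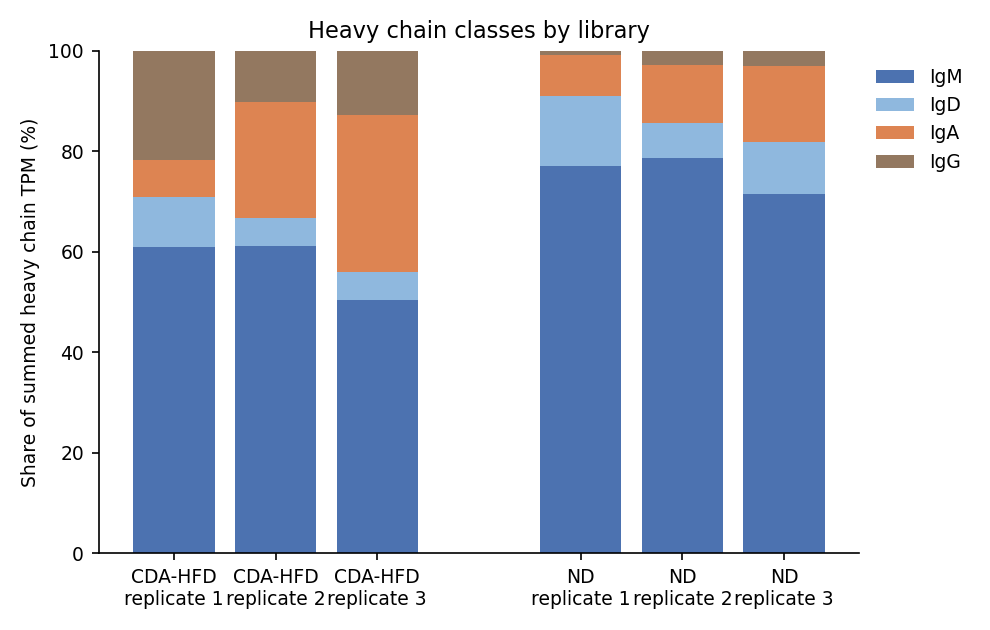
Share of the summed heavy chain TPM (vertical axis, percent) taken by IgM, IgD, IgA and the 4 IgG genes together in each library, CDA-HFD on the left and ND on the right. IgG takes 21.7%, 10.3% and 12.8% of the CDA-HFD bars and at most 3.10% of any ND bar, while IgA is thin in CDA-HFD replicate 1 and thick in replicates 2 and 3.

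Ratios within a library do not depend on its scaling, apart from the pseudocount. On the log2 scale, the difference of CDA-HFD from ND livers was 1.66 for summed IgG over *Ighm* and 0.66 for *Igkc* over the summed heavy chains, each without overlap (exact permutation p = 0.1, n = 3 each, adjusted p = 0.25 over 5 ratios). *Igkc* over the mean of *Cd79a* and *Cd79b*, which encode the signalling chains of the B cell receptor, differed by 0.73 with overlap (exact permutation p = 0.2, n = 3 each), and *Igha* over *Ighm* by 0.75 with overlap (exact permutation p = 0.4, n = 3 each). *Jchain* over *Igkc* was −3.14, −3.17 and −3.34 in CDA-HFD livers and −3.17, −2.83 and −2.71 in ND livers, a difference of −0.31 with overlapping groups (exact permutation p = 0.3, n = 3 each) that changed sign to 0.07 with a pseudocount of 0.1. The adjusted p of these 3 ratios was 0.333 to 0.4.

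The lambda constant genes, which encode the alternative to kappa, summed to 11.0, 10.1 and 13.3 TPM in CDA-HFD livers and 4.55, 2.32 and 1.88 TPM in ND livers, a ratio of 3.93. Of 3 tested lambda constant genes, *Iglc1* (log2 fold change 1.60, limma adjusted p = 0.00424) and *Iglc3* (1.51, 0.000285) rose, and *Iglc2* did not pass (0.84, 0.129), and the means of *Iglc1* and *Iglc3* were under 1 TPM in ND livers. *Iglc3* overlaps exons of *2010309G21Rik* and *Iglc2* those of *Iglj2*, and whether counting used the strand is not stated. Kappa made up 86.9 ± 3.40% of light chain TPM in CDA-HFD livers and 87.1 ± 5.20% in ND livers (SD, n = 3 each, exact permutation p = 0.8).

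The variable segments, which are joined to these constant regions and give an antibody its specificity, were measured apart from them. The heavy chain segments summed to 41.2, 44.9 and 55.9 TPM in CDA-HFD livers and 13.9, 12.4 and 10.5 TPM in ND livers, a ratio of 3.86, and the kappa segments to 59.4, 80.3 and 90.3 TPM in CDA-HFD livers and 18.6, 19.4 and 13.4 TPM in ND livers, a ratio of 4.48. Neither sum overlapped between the diets (exact permutation p = 0.1, n = 3 each, adjusted p = 0.111 over 10 sums). Reads fell on 74 of 181 heavy segments in CDA-HFD livers and 49 in ND livers, and on 69 of 160 kappa segments in CDA-HFD livers and 52 in ND livers. These counts go with depth on the segments, 385 heavy and 628 kappa reads on CDA-HFD against 84 and 121 on ND. Only 3 heavy and 16 kappa segments reached a mean of 1 TPM, of which 2 and 5 were called higher and 0 lower. All 7 of these had an ND mean under 1 TPM and reached the filter only through the CDA-HFD libraries, so that the direction of these calls is not read as a result.

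Single segments had at least 20 reads in 2 of the CDA-HFD livers. In CDA-HFD replicate 2, *Igkv1-88* had 33 of 204 kappa reads (16.2%, exact 95% interval 11.4 to 22.0%), and *Ighv4-1* had 26 of 114 heavy reads (22.8%, 15.5 to 31.6%). *Igkv8-34* had 30 reads there and 0 in each of the other 5 libraries, where a count of 0 allows up to 3. In CDA-HFD replicate 3, *Igkv8-30* had 32 of 266 kappa reads (12.0%, 8.38 to 16.6%) and *Igkv6-23* had 21. Both were picked after their values were seen, for having at least 20 reads in 1 library. The intervals of these shares hold counting error only and take reads as independent. They are given for the highest segment of a library at its locus, so that they are too narrow.

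In CDA-HFD replicate 1 the highest segments had 8 of 108 heavy reads (7.41%, 3.25 to 14.1%) and 8 of 158 kappa reads (5.06%, 2.21 to 9.73%). ND livers had 25 to 30 heavy and 33 to 47 kappa reads, with 3 to 5 on the highest segment. In ND replicates 1, 2 and 3 its share of heavy reads was 10.0%, 10.3% and 16.0%. The share of kappa reads was 12.2%, 6.38% and 9.09%. The intervals ran from as low as 1.34% to as high as 36.1%. At each locus they took in the highest shares of CDA-HFD replicates 2 and 3, which therefore cannot be told from those of ND livers. *Ighv1-26*, among the highest heavy segments in both diets, had 8, 4 and 9 reads in CDA-HFD livers and 0, 1 and 4 in ND livers (log2 fold change 1.17, limma adjusted p = 0.0209). Its groups overlapped in TPM, and with an ND mean of 0.705 TPM it is among the called segments whose direction is not read as a result. The other segments highest in ND were not called or not tested, *Ighv1-9* with 5 reads on each diet, *Igkv10-96* with 22 on CDA-HFD and 7 on ND, and *Igkv19-93* with 15 and 7. Of the stretches of 75 bases in *Ighv4-1*, 13.5% recur in *Ighv4-2*, and 5.4% of those in *Igkv8-30* recur in *Igkv8-21*, whereas *Igkv1-88* and *Igkv8-34* share 0%.

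**Figure D3:**
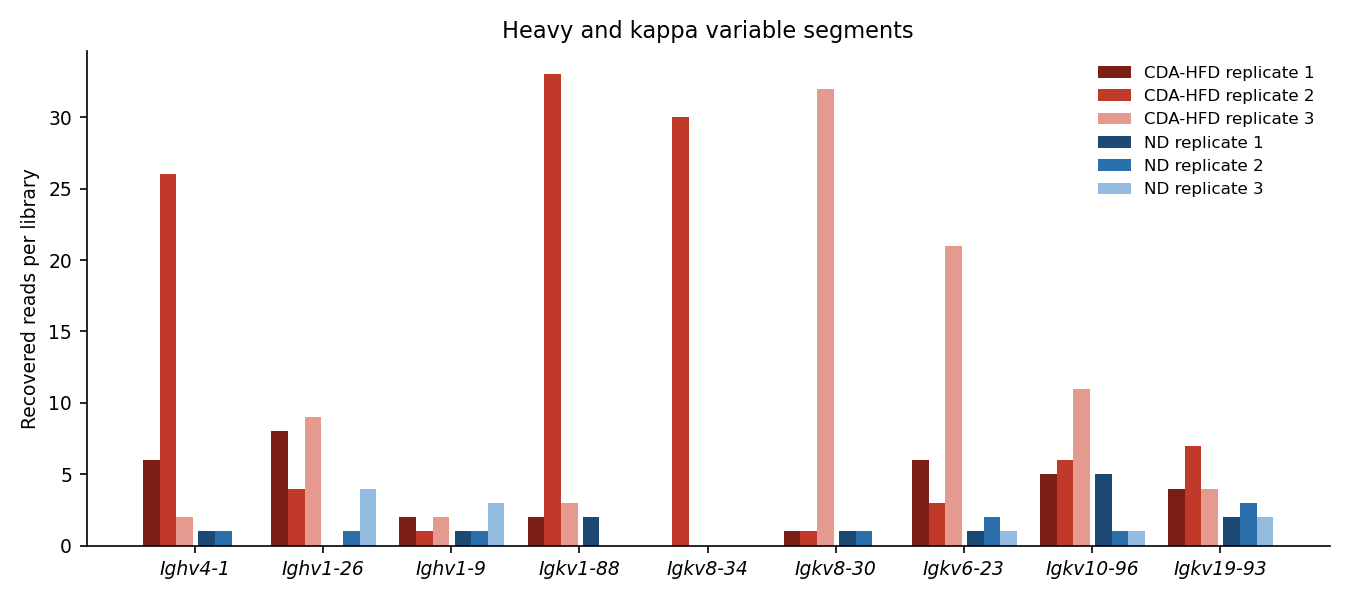
Recovered reads (vertical axis) of 9 variable segments in each CDA-HFD library (red shades) and each ND library (blue shades). Igkv1-88, Igkv8-34 and Ighv4-1 peak at 33, 30 and 26 reads in CDA-HFD replicate 2, Igkv8-30 and Igkv6-23 at 32 and 21 reads in CDA-HFD replicate 3, and the ND bars reach 5 reads at most.

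The cells that make antibodies were followed through 2 lists of other genes. For comparison, 21.1% of all genes tested were called higher and 3.79% lower. Of 18 B cell genes 10 were tested, 7 rose (4 with an ND mean under 1 TPM, so that the CDA-HFD libraries alone brought them into the test) and 0 fell, with a median log2 fold change of 1.17. The receptor chains *Cd79a* (5.97, 3.39 and 4.83 TPM in CDA-HFD livers, 2.22, 1.24 and 1.02 TPM in ND livers, log2 fold change 1.21, limma adjusted p = 0.00209) and *Cd79b* (1.25, 5.62e-05) rose. The largest rises were in *Cd72* (ratio of means 9.29) and *Cd22* (ratio of means 10.3), inhibitory receptors that other blood cells also carry. The defining marker *Ms4a1*, encoding CD20, stayed under the 1 TPM mean and was not tested. It stood at 1.26, 1.19 and 0.868 TPM in CDA-HFD livers and 0.474, 0.731 and 0.771 TPM in ND livers, without overlap.

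Of 18 plasma cell genes 12 were tested, 3 rose and 2 fell, with a median of −0.18. Over all genes tested, 21.1% were called higher and 3.79% lower. Several of the 12 stood well above *Jchain* in ND livers (*Xbp1* 375, *Creld2* 334, *Sdc1* 222 and *Txndc5* 219 TPM, against 1.71 for *Jchain*). The median is therefore not read as a level of plasma cells. The 3 that rose were *Slamf7* (log2 fold change 3.99), *Tnfrsf13b*, encoding the BAFF and APRIL receptor TACI (2.43), and *Prdm1*, encoding the transcription factor Blimp-1 (1.56). All 3 had an ND mean under 1 TPM and were tested only because of their level in CDA-HFD livers, and they are also expressed in other blood cells. *Derl3* (−3.89) and *Creld2* (−2.64) fell, genes of the endoplasmic reticulum that cells under protein folding stress induce. Of the defining markers, *Tnfrsf17*, encoding the plasma cell receptor BCMA, had 1, 0 and 0 reads in CDA-HFD livers and 1, 0 and 0 in ND livers. *Mzb1*, which helps to assemble IgM, had 1, 0 and 2 reads in CDA-HFD livers and 0, 0 and 1 in ND livers, and its exons overlap those of *SPATA24*.

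Of 22 genes that help B cells or drive class switching 10 were tested, 6 rose and 1 fell, with a median of 1.35. Of the 6, 4 had an ND mean under 1 TPM, so that the CDA-HFD libraries alone brought them into the test. The shares over all genes tested were 21.1% higher and 3.79% lower. *Cxcr4*, the receptor that keeps plasma cells in bone marrow and is found on many leukocytes (3.59), *Icosl*, the ICOS ligand (2.22), and *Tgfb1*, a cytokine that directs switching to IgA (2.11), had the largest rises on the log2(TPM + 1) scale, where genes of low level count for less. *Tnfsf13b*, encoding the B cell survival factor BAFF, stood at 2.498, 2.099 and 2.263 TPM in CDA-HFD livers and 0.170, 0.126 and 0.186 TPM in ND livers (ratio of means 14.2, limma adjusted p = 3.21e-05). *Cxcl13*, the chemokine of B cell follicles, fell to 0.582, 0.123 and 0.739 TPM in CDA-HFD livers, against 6.34, 6.52 and 6.31 TPM in ND livers (−2.34, limma adjusted p = 1.14e-05). *Icos* (mean 0.684 TPM on CDA-HFD, 1.51 TPM on ND) and *Cxcl12* (mean 138 TPM on CDA-HFD, 157 TPM on ND) were also lower without overlap. Neither was called (−0.58 and −0.19).

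The list of 8 genes for carrying or binding antibodies left out the Fc receptors for IgG other than *Fcgrt* and *Trim21*. Of these 8 genes 5 were tested, 2 rose and 0 fell, beside 21.1% higher and 3.79% lower over all genes tested. *Pigr*, the receptor that takes polymeric IgA and IgM across epithelia, was at 786, 804 and 778 TPM in CDA-HFD livers and 1219, 1343 and 1154 TPM in ND livers. Every CDA-HFD library lay below every ND library, but the log2 fold change of −0.65 (limma adjusted p = 4.91e-05) stayed within the limit of 1 and it was not called. *Fcgrt*, the neonatal Fc receptor that spares IgG from breakdown, did not pass (0.15, limma adjusted p = 0.0628). *Fcer1g*, the shared signalling chain of Fc receptors on myeloid cells (2.92), and *Trim21*, a receptor for antibody inside cells (1.05), rose.

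**Figure D4:**
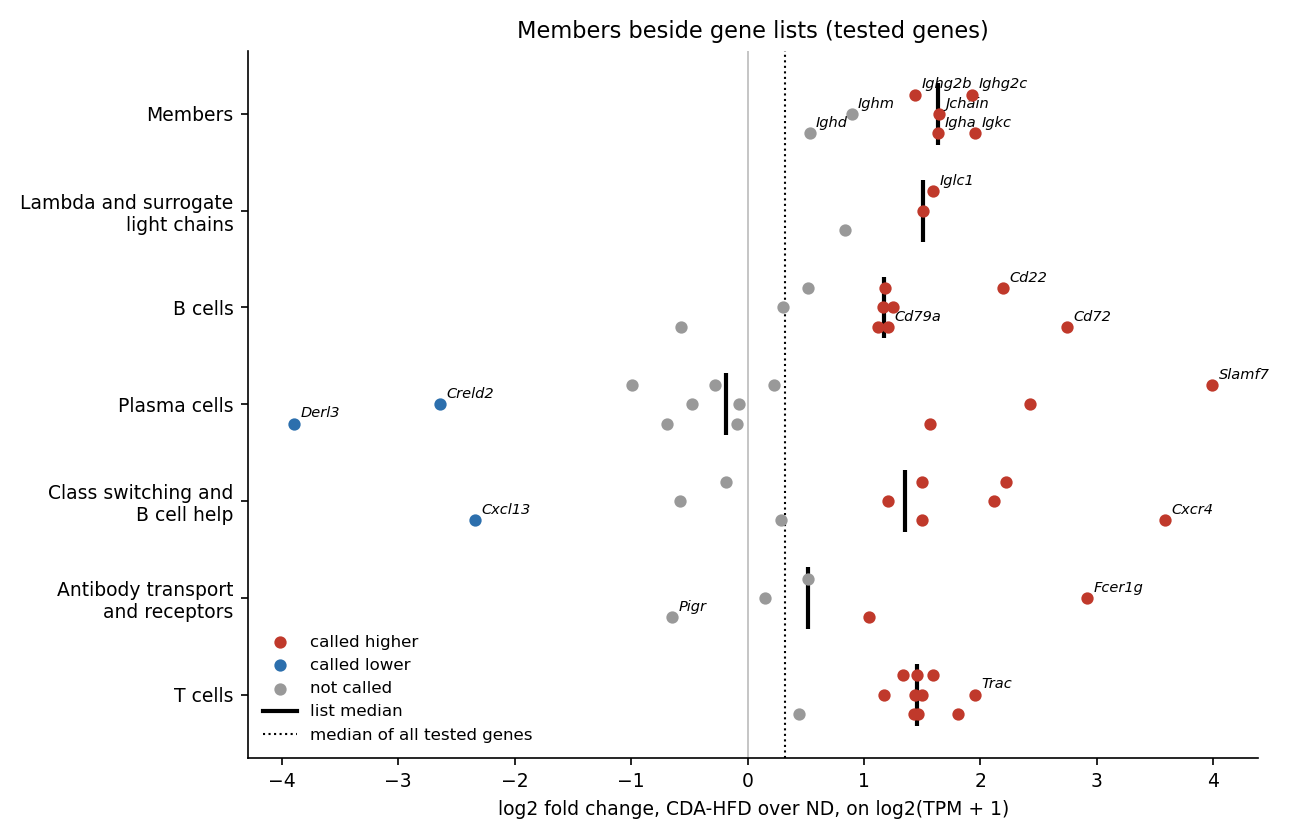
Log2 fold change of CDA-HFD over ND (horizontal axis, on log2(TPM + 1)) for the tested members and the tested genes of 6 lists; red points were called higher, blue lower and grey neither, short bars are medians and the dotted line is the median of all tested genes, 0.32. The members' median is 1.64, that of B cell genes 1.17 and that of plasma cell genes −0.18.

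Markers of other cells and tissues that a liver sample can hold are given beside these results. Here too the shares over all genes tested were 21.1% higher and 3.79% lower. T cell genes were mostly called higher (10 of 11 tested rose, 6 of them with an ND mean under 1 TPM, and 0 fell, median 1.46, summed level 54.8 to 67.7 TPM in CDA-HFD livers and 10.9 to 16.6 TPM in ND livers), among them *Trac*, *Trbc2* and *Cd8b1*. Red blood cell genes summed to 539 to 1078 TPM in CDA-HFD livers and 738 to 918 TPM in ND livers, with 0 of 5 higher and *Alas2*, the first enzyme of heme synthesis in red cells, lower (−1.59). CDA-HFD replicate 2 had the highest sum. Genes of lymph node and follicular stroma were at 3.73 TPM or less in sum, with *Ccl21a* and *Glycam1* at 0 in all libraries, and the highest sum was in CDA-HFD replicate 3 through *Ccl19* (2.77 TPM, from 19 reads). Of the pancreas genes *Cpa1* and *Pnlip* were at 0 in all libraries, and *Cela2a* was not called (0.92). Of 7 hepatocyte genes 0 were called, with a median of −0.30. The part of blood or lymphoid tissue in the members' levels was not tested.

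The genes whose log2(TPM + 1) followed a member most closely over the 6 libraries were no antibody genes by the rule. For *Igkc* they were *Slc52a2*, a riboflavin transporter, *Trgc2*, a constant region of the gamma T cell receptor, *Alg5* and *Pmm2*, enzymes of protein glycosylation, and *Vps28*, of endosomal sorting, with Pearson's r from 0.9991 down to 0.9965. For *Jchain* they were *Coa4*, *Mefv*, *Reep4*, *Bcat2* and *Daglb*, also from 0.9991 down to 0.9965. The points share the same 6 libraries in 2 diets, and r of at least 0.95 was reached by 2366 genes for *Igkc* and 1772 for *Jchain*, so that these values are a description.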

How the data were processed

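The members and gene lists were chosen with earlier results of these data known. The submitters' processing notes name Trimmomatic 0.39.0, HISAT2 2.2.1, featureCounts 2.0.1 and the build GRCm38 (mm10), which the methods give as trimming, alignment and counting. The authors deposited TPM per gene, 1 column per library. Their methods describe cDNA by SMART-Seq, single-end Nextera XT libraries and removal of duplicates. *Alb* had 93.1 to 105 reads per exon base, above the 2 that removal by start position could leave in single-end reads. The strand setting and annotation release are not given in the sources used here.

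Exon lengths and coordinates came from GENCODE vM21 basic (53255 of 55254 gene names matched). TPM times length was a whole number of reads, within 0.01, for 98.4% to 98.5% of values above 0. Libraries were grouped by the labels, 3 per diet. Log2(TPM + 1) was fitted with limma 3.58.1 in R 4.3.3 (diet as the only term, eBayes with trend, two-sided) with Benjamini-Hochberg adjustment over the 14730 genes that averaged 1 TPM or more. Reads served for exact 95% counting intervals and for voom as an alternative. Shares, ratios and sums had exact two-sided permutation tests. The fit was tested on simulated data. As far as the labels say, replicates are biological, but they do not number the animals, so that p-values measure the spread between these libraries.

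Named were every member, the partners in ratios, in each list of cells or pathways up to 3 called genes with the largest change (or the gene of highest TPM where none was called), further genes set by name, the 2 highest variable segments per diet and locus, and the 5 genes most like *Igkc* and *Jchain*. Other genes named in the lists, as well as *Igkv8-30* and *Igkv6-23*, were picked once their values had been seen. Some genes that the rule takes in by name are left out of the text. The alternatives tried were quantile normalization, median-of-ratios scaling, TPM without the 50 most abundant genes, pseudocounts of 0.1 and 0.5, a minimum of 5 TPM or no filter, a robust eBayes or one without trend, each library left out, a replicate block, voom, summed IgG, no fold limit and a limit of 1.5, and, chosen after seeing the data, reads per length of the secreted form.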

Additional observations from a re-analysis of the deposited data

How the results depend on the processing

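The 5 members called higher became 2 with a minimum of 5 TPM, where only 3 members were tested, and 2 with quantile normalization, where *Igha*, *Ighg2b* and *Jchain* missed the call. Without single libraries the count was 4 to 6. Over all genes, 3115 were called higher and 558 lower. The counts were 1914 higher with a minimum of 5 TPM, 1852 higher and 1135 lower with quantile normalization, 2300 and 1033 with median-of-ratios scaling, 7604 and 2117 with no fold limit, and 1905 and 288 with a limit of 1.5. Voom on reads called 3410 and 671. The median log2 fold change of all genes, 0.32 in TPM, was −0.10 after quantile normalization, where *Ighm* was at 0.47 and *Ighd* changed sign to −0.17, and −0.04 after median-of-ratios scaling, where *Ighm* was at 0.51. The *Jchain* to *Igkc* difference changed sign to 0.0682 with a pseudocount of 0.1; the cause was not tested. The other share and ratio results kept their direction. Over single members, 126 alternative values left the call, or its absence, as it was. They include 18 values each of *Ighm* and *Ighd*, which were not called in the main fit. Of the other values 4 lost the call, 2 gained it and 1 changed sign.

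The deviations of same-numbered libraries correlated weakly (r = 0.09, 0.04 and 0.09) and the numbers were not taken to pair the mice. Each CDA-HFD library nevertheless correlated best with the ND library of its own number. With replicate number as a block, 5 members and 3128 genes were called higher. *Ighg2c*, *Ighg3* and *Ighg1* rest on 1 to 4 reads in ND livers, and at that depth the sizes of their ratios are loose.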
